A study of Rattus norvegicus with 8 samples.

Results

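The output and stabilising arms of the circadian clock were followed in the rat pineal gland through 9 named genes: the REV-ERB receptors Nr1d1 and Nr1d2, the receptor Rora, the bZIP activators Dbp, Tef and Hlf, the bZIP repressor Nfil3, and the repressors Bhlhe40 and Bhlhe41. They were taken from the deposited expression values by gene symbol. Of the 9 genes, 6 have a row, among 16462 gene symbols in all, and they hold 7 of the 16932 transcripts. Nr1d2, Hlf and Bhlhe41 were not analysed here. Of the 7 transcripts, 6 had at least 1 FPKM in at least 2 libraries and were tested, 1 for each of the 6 genes. FPKM is the number of fragments of a transcript scaled by its length and by the total mapped in its library.

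Glands came from Sprague-Dawley rats, an outbred laboratory strain, kept on 14 h of light and 10 h of dark. The 8 libraries were E21 mid-night and mid-day (pools of 15 and 13 animals), P5 mid-night and mid-day (19 and 17), P20 mid-night and mid-day (10 and 13) and P40 mid-night and mid-day (3 and 3). E21 is embryonic day 21, P5, P20 and P40 are postnatal days, mid-night was ZT19 and mid-day ZT7, where ZT is zeitgeber time, counted in hours from lights on. No agent or altered allele is named for any group. With 1 pooled library for each age and time, the 2 libraries of an age were its only replicates and differ in time of day. An adjusted p therefore weighs a difference against what is left after age and time were fitted. What is left holds both the spread between pools and any night difference that changes with age, which this design cannot separate.

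In the clock of mammals, CLOCK and BMAL1 (gene Arntl) switch on genes through E-boxes, and the period and cryptochrome proteins repress them in turn. A second loop joins the first: the heme-binding repressors REV-ERBα (Nr1d1) and REV-ERBβ compete with the ROR activators for the same elements, those of Arntl among them, which steadies the rhythm. Output runs through D-boxes, which DBP, TEF and HLF activate and NFIL3 (also called E4BP4) represses, while DEC1 (Bhlhe40) and DEC2 bind E-boxes and repress there. In the pineal gland of rodents the daily rhythm of melatonin synthesis is driven at night by noradrenaline from sympathetic nerves under the control of the suprachiasmatic clock.

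Between E21 and P40, 4 of the 6 measured genes rose past the test, and none fell. Of all transcripts tested 16.1% rose and 26.8% fell. Nr1d1 was higher at P40 by 2.25 ± 0.17 (SE) on the log2(FPKM + 1) scale, Bhlhe40 by 1.48 ± 0.34, Dbp by 1.34 ± 0.31 and Rora by 0.67 ± 0.19. Tef and Nfil3 did not pass. No member passed the test of mid-night against mid-day, although at P40 Dbp, Nfil3 and Bhlhe40 were each more than 2-fold higher at mid-night in the 1 pool of each time.

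Over the 8 libraries the mean level, which FPKM makes comparable between transcripts of different length, was 21.4 FPKM for Dbp, 20.7 FPKM for Nr1d1 and 17.6 FPKM for Tef, each near or above the 90th percentile of all deposited transcripts (percentiles of 92.0, 91.7 and 89.9). Bhlhe40 averaged 7.77 FPKM, Rora 7.32 FPKM and Nfil3 2.63 FPKM. The highest library exceeded the lowest 6.23-fold for Nr1d1, 5.81-fold for Bhlhe40, 4.54-fold for Dbp, 2.89-fold for Nfil3, 2.10-fold for Rora and 1.91-fold for Tef. For Nr1d1, Dbp, Tef and Bhlhe40 the highest library was the P40 mid-night one, for Rora P40 mid-day and for Nfil3 P5 mid-night.

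**Figure D1:**
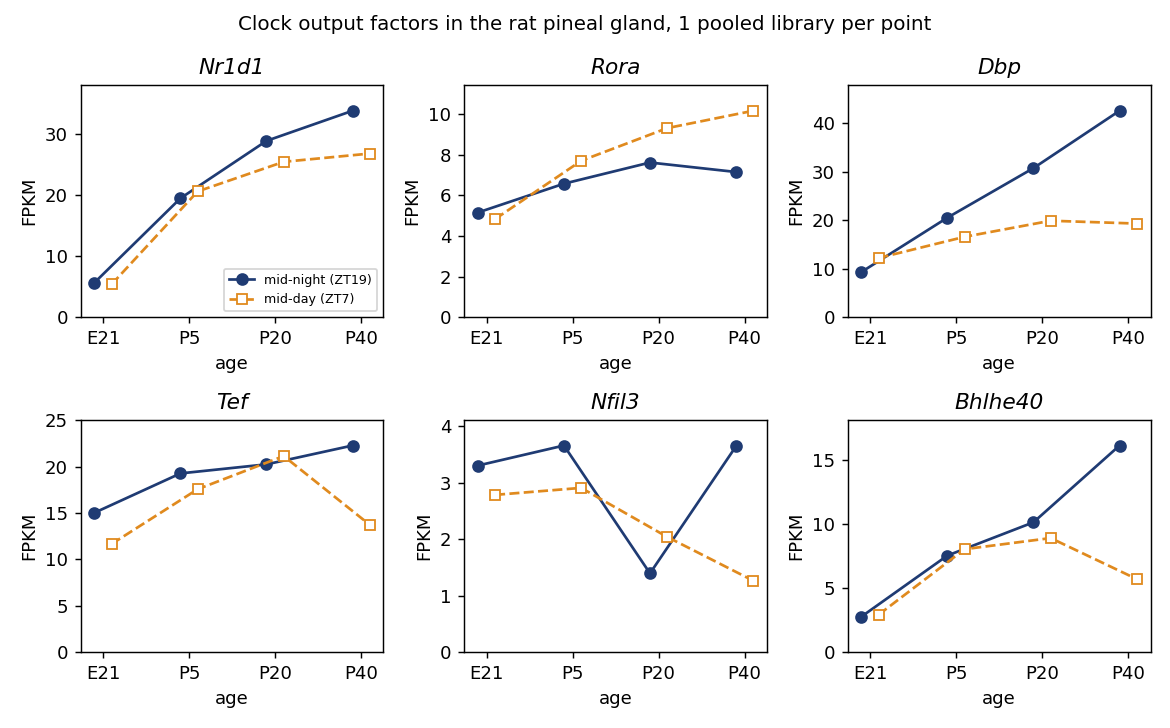
FPKM (y axes, each from 0) of the 6 measured genes against age (x axes), with filled circles and solid lines for mid-night and open squares and dashed lines for mid-day; each point is 1 pooled library, with no error bar. Nr1d1 rises at both times of day, Dbp and Bhlhe40 part between mid-night and mid-day at P40 (42.5 against 19.3 FPKM, and 16.1 against 5.71 FPKM), and Rora is higher at mid-day than at mid-night from P5 on.

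Nr1d1 (NM_001113422, rn4 chr10:87541245-87548186) encodes REV-ERBα, a nuclear receptor that recruits corepressors to Arntl and other targets. Mid-night libraries had 5.68, 19.5, 28.9 and 33.8 FPKM at E21, P5, P20 and P40, and mid-day libraries had 5.42, 20.6, 25.4 and 26.8 FPKM. Both E21 libraries lay below all 6 later ones, and both P5 libraries lay below all 4 of P20 and P40. The age means were 5.55 ± 0.186, 20.0 ± 0.793, 27.1 ± 2.42 and 30.3 ± 4.94 FPKM (SD, n = 2 libraries each). P20 and P40, neighbours in that order, overlapped, since the P40 mid-day library lay below the P20 mid-night one.

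Most of the Nr1d1 difference was already there at P5, which stood 1.68 ± 0.17 above E21 on the log2(FPKM + 1) scale (limma, adjusted p = 0.00139). P40 stood 2.25 ± 0.17 above E21 (adjusted p = 9.87e-05), and in plain FPKM the P40 library was 5.94 times the E21 one at mid-night and 4.94 times at mid-day. Both contrasts share the E21 libraries. The P40 call held under all 17 other settings and left-out libraries tried, with adjusted p between 4.91e-05 and 0.00178. A second Nr1d1 transcript, NM_145775, was listed at 0 in 6 libraries, at 0.251 FPKM in the P5 mid-night library and at 0.231 FPKM in the P40 mid-night library, and was not tested.

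The 3′ end of Nr1d1 overlaps that of a Thra transcript (NM_031134, thyroid hormone receptor alpha) on the other strand, over 1062 bp of rn4 (chr10:87541245-87542306). The library protocol is not stated to mark strand, so reads in that stretch cannot be told apart. Of this Thra transcript, mid-night libraries had 21.4, 19.5, 12.4 and 13.0 FPKM from E21 to P40 and mid-day libraries 19.0, 18.0, 15.8 and 14.8 FPKM. Its P40 minus E21 difference was -0.51 ± 0.19 (log2(FPKM + 1), adjusted p = 0.0598), which did not pass.

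RefSeq (GRCr8) gives 2 start sites for rat Nr1d1. The window of 250 bases before the outer start (chr10:84231813-84232062, minus strand) is printed because Nr1d1 changed most with age. Capitals mark its only hit among the motifs searched, an E-prime box (CACGTT, read here on the other strand as AACGTG) 174 to 169 bases before the start. The inner start has an E-box 191 to 186 bases before it, shown with 12 bases on each side (chr10:84229628-84229657, minus strand).
Nr1d1 outer start: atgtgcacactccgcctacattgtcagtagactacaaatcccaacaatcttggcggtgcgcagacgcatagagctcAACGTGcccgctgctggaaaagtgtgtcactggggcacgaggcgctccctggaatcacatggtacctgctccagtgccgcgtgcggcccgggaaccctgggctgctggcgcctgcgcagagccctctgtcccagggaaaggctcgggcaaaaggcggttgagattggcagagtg
Nr1d1 inner start, E-box: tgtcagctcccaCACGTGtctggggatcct

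Rora (NM_001106834, rn4 chr8:73052281-73817764) encodes RORα, the activator that works on the elements REV-ERBα represses. It had 5.16, 6.58, 7.62 and 7.16 FPKM in mid-night libraries from E21 to P40 and 4.84, 7.71, 9.31 and 10.2 FPKM in mid-day libraries. Mid-day was the higher time at P5, P20 and P40. P40 was 1.39 times E21 in the mid-night libraries and 2.10 times in the mid-day libraries. The age means of 5.00 ± 0.226, 7.14 ± 0.795, 8.47 ± 1.20 and 8.66 ± 2.13 FPKM (SD, n = 2 libraries each) set E21 below the other ages, whose libraries overlapped. P40 exceeded E21 by 0.67 ± 0.19 (log2(FPKM + 1), adjusted p = 0.0236). That call was lost without the E21 mid-day library (adjusted p = 0.176), without the P40 mid-night library (0.0552) and without the P40 mid-day library (0.185).

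Nr1d1 and Rora, 1 repressor and 1 activator, can be set against each other within each library. The 2 other ROR receptors looked for had no row, and Nr1d2 was not analysed. The ratio is therefore that of these genes and not of all REV-ERB and ROR receptors. The ratio of Nr1d1 to Rora in FPKM was 1.10, 2.96, 3.79 and 4.72 at mid-night from E21 to P40, and 1.12, 2.67, 2.73 and 2.63 at mid-day. It was near 1 in both E21 libraries and above 2.6 in all 6 later ones, and it was higher at each later age in the mid-night libraries, while the 3 mid-day values after E21 lay within 2.63 to 2.73. Against Arntl, a target that REV-ERBα represses, the ratio of Nr1d1 was 0.677, 3.15, 11.6 and 18.3 at mid-night and 0.706, 2.86, 2.94 and 3.28 at mid-day. Arntl itself had 8.39, 6.18, 2.49 and 1.84 FPKM at mid-night and 7.68, 7.20, 8.66 and 8.17 FPKM at mid-day. These ratios were not tested.

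**Figure D2:**
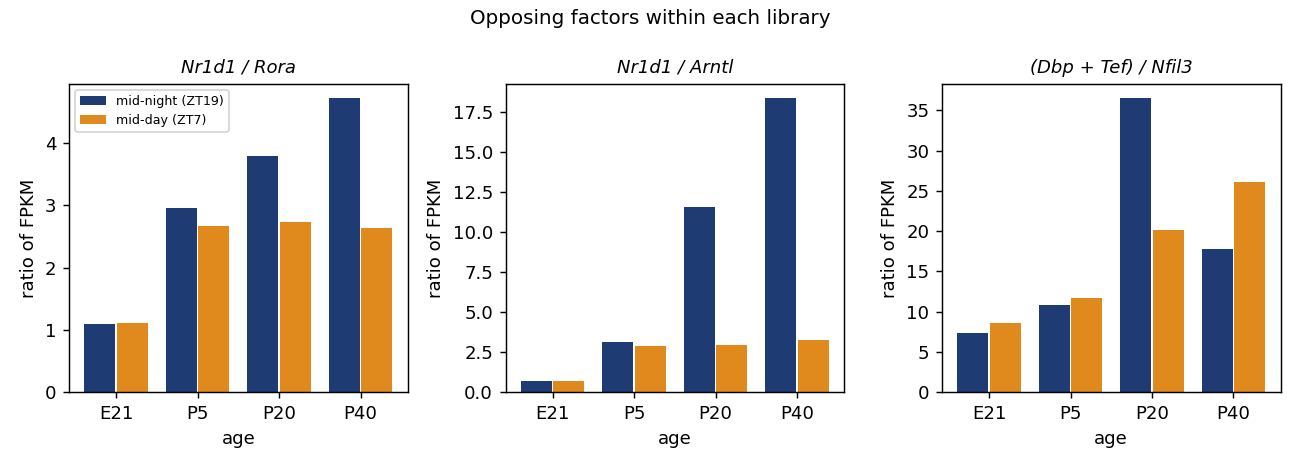
Ratios of FPKM within each library (y axes from 0) against age (x axes), for Nr1d1 over Rora, Nr1d1 over Arntl, and Dbp plus Tef over Nfil3; dark bars are mid-night and orange bars mid-day, 1 pooled library each, with no error bar. Nr1d1 over Arntl is 18.3 at P40 mid-night and 3.28 at P40 mid-day. Dbp plus Tef over Nfil3 is highest at P20 mid-night, at 36.5, where Nfil3 is at 1.40 FPKM.

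Dbp (NM_012543, rn4 chr1:96173572-96178485) encodes D-box binding protein, the PAR bZIP activator whose own gene is a classic target of CLOCK and BMAL1 in mouse liver. Mid-night libraries had 9.35, 20.5, 30.7 and 42.5 FPKM from E21 to P40, and mid-day libraries had 12.2, 16.6, 19.9 and 19.3 FPKM. The order of the times turned between E21, where mid-night was the lower, and P5, and the gap was wider at each later age. The age means were 10.8 ± 2.04, 18.6 ± 2.79, 25.3 ± 7.65 and 30.9 ± 16.4 FPKM (SD, n = 2 libraries each), and only E21 lay clear of the other ages, whose neighbours overlapped.

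P40 exceeded E21 by 1.34 ± 0.31 for Dbp (log2(FPKM + 1), adjusted p = 0.0106), and this call was lost without the E21 mid-night library (adjusted p = 0.0651) and without the P40 mid-night library (0.0946). The rise rested mostly on mid-night: P40 was 4.54 times E21 in the mid-night libraries and 1.58 times in the mid-day libraries. Mid-night minus mid-day was -0.35, 0.29, 0.60 and 1.10 on the log2 scale from E21 to P40. Over P20 and P40 together the night effect was 0.85 ± 0.22 (unadjusted p = 0.00482, adjusted p = 0.0735), which missed the threshold. Centring each library on its median brought it past (0.96, adjusted p = 0.0322).

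The 250 bases before the Dbp start (chr1:105312006-105312255, plus strand, GRCr8, RefSeq) are printed beside the night values because no motif searched was found in them. Dbp is known in mouse to carry E-boxes within the gene and farther upstream, which this window does not cover.
Dbp start: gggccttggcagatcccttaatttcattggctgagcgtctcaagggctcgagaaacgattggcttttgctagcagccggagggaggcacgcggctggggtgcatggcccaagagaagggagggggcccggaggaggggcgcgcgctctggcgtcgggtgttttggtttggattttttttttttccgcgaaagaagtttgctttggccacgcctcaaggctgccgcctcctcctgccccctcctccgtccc

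Tef (NM_019194, rn4 chr7:120164880-120179984) encodes thyrotroph embryonic factor, which binds the same D-boxes as DBP. It had 15.0, 19.3, 20.2 and 22.3 FPKM in mid-night libraries from E21 to P40 and 11.7, 17.6, 21.1 and 13.7 FPKM in mid-day libraries. At both times levels were higher at each age up to P20, and P40 mid-day lay back between the 2 E21 values. The age means were 13.4 ± 2.38, 18.4 ± 1.20, 20.7 ± 0.632 and 18.0 ± 6.04 FPKM (SD, n = 2 libraries each), and the P40 libraries overlapped every other age. P40 minus E21 was 0.38 ± 0.21 (log2(FPKM + 1), adjusted p = 0.176) and P5 minus E21 0.45 ± 0.21 (adjusted p = 0.187), and neither passed. Against Tef, Dbp stood at a ratio of 0.622, 1.07, 1.52 and 1.91 in mid-night libraries from E21 to P40 and at 1.05, 0.944, 0.941 and 1.41 in mid-day libraries.

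The 250 bases before the Tef start (chr7:115206577-115206826, plus strand, GRCr8, RefSeq) hold an E-box 198 to 193 bases before it, in capitals.
Tef start: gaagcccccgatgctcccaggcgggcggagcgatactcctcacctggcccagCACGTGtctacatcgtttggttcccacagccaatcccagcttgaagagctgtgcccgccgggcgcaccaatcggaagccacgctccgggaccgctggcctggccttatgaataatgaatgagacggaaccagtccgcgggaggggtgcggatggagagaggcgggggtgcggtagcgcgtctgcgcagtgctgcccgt

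Nfil3 (NM_053727, rn4 chr17:18092488-18107708) encodes the repressor that occupies D-boxes against DBP and TEF, and had the lowest mean over the 8 libraries of the 6 genes. Mid-night libraries had 3.31, 3.66, 1.40 and 3.65 FPKM from E21 to P40, and mid-day libraries had 2.79, 2.91, 2.04 and 1.27 FPKM. Both P20 libraries and the P40 mid-day library lay below all 4 of E21 and P5, while the P40 mid-night library was as high as P5 mid-night. The age means were 3.05 ± 0.367, 3.29 ± 0.530, 1.72 ± 0.456 and 2.46 ± 1.68 FPKM (SD, n = 2 libraries each). P40 minus E21 was -0.31 ± 0.30 (log2(FPKM + 1), adjusted p = 0.428), with no sign that held, since without the P40 mid-day library it was 0.19.

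The sum of Dbp and Tef over Nfil3 sets the measured activators of D-boxes over their repressor, without Hlf, which was not analysed. It was 7.38, 10.9, 36.5 and 17.8 at mid-night from E21 to P40 and 8.58, 11.7, 20.1 and 26.1 at mid-day. Both P20 libraries and both P40 libraries lay above all 4 earlier ones. The time of day with the higher ratio changed, from mid-night at P20 to mid-day at P40, with the Nfil3 values named above. In those libraries Nfil3 was at 1.40 and 1.27 FPKM, near the filter of 1 FPKM, so small changes in it move the ratio. These ratios were not tested.

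Bhlhe40 (NM_053328, rn4 chr4:144139485-144145186) encodes DEC1, a basic helix-loop-helix repressor at E-boxes. Mid-night libraries had 2.78, 7.54, 10.1 and 16.1 FPKM from E21 to P40, and mid-day libraries had 2.93, 8.04, 8.90 and 5.71 FPKM. Mid-night and mid-day lay close together up to P20, and at P40 mid-night was 2.82 times mid-day. The age means were 2.85 ± 0.108, 7.79 ± 0.351, 9.52 ± 0.871 and 10.9 ± 7.36 FPKM (SD, n = 2 libraries each). Every later library exceeded both E21 libraries, P5 and P20 did not overlap, and P40 spanned both.

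P40 exceeded E21 by 1.48 ± 0.34 for Bhlhe40 (log2(FPKM + 1), adjusted p = 0.0106), a call lost without the E21 mid-night library (adjusted p = 0.0635) and without the P40 mid-night library (0.0588). In plain FPKM, P40 was 5.81 times E21 at mid-night and 1.95 times at mid-day. P5 exceeded E21 by 1.19 ± 0.34 (adjusted p = 0.0527), just short of the threshold. It passed under a pseudocount of 0.1 (0.0435), under quantile normalization (0.0370) and without either P40 library (0.0111 each).

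The 250 bases before the Bhlhe40 start (chr4:143174200-143174449, plus strand, GRCr8, RefSeq) hold an E-box 220 to 215 bases before it, in capitals, the same letters that DEC1 itself is known to bind.
Bhlhe40 start: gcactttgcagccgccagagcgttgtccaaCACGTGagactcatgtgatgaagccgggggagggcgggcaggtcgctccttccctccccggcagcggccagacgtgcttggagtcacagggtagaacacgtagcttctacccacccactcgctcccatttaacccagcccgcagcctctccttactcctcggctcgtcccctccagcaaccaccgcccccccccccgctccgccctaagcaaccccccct

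The motifs were searched on both strands of the 250 bases before each start: the E-box CACGTG, the E-prime box CACGTT, the D-box TTATGTAA or TTATGCAA, the core of the ROR element TAGGTCA or TGGGTCA, and the cyclic AMP element TGACGTCA. The E-box and the E-prime box differ in the last letter, so 1 site cannot count as both. All 6 measured genes matched a RefSeq entry, with 7 windows in all. An E-box stood in 3 of the 7 windows (Nr1d1 inner start, Tef and Bhlhe40) and in 5.59% of 33469 rat windows of the same length. The E-prime box stood in 1 of the 7 and in 4.07% of all windows. None of the 7 held a D-box (1.60% of all windows), a ROR element core (5.62%) or a cyclic AMP element (1.59%), and the windows of Dbp, Nfil3 and Rora held no motif of the 5. These GRCr8 windows were not matched by position to the rn4 transcripts.

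The change with age was tested in 1 fit over all 8 libraries with age and time of day as terms. In the F test over the 4 ages, 3 of the 6 genes passed, which were Nr1d1 (adjusted p = 0.0003), Bhlhe40 (0.0274) and Dbp (0.0362), against 36.4% of the 9960 transcripts tested. Rora had an adjusted p of 0.0636, Tef 0.164 and Nfil3 0.282. The 3 of 6 are thus near the share of all transcripts. Dbp lost this call in 8 of 17 alternatives (up to 0.127) and Bhlhe40 in 6 (up to 0.177), while Rora gained it under quantile normalization (0.0209) and median centring (0.0200).

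For P40 against E21, 4 of the 6 were higher past the test, against the 16.1% of all transcripts given above. These 4 calls held under quantile normalization and median centring. The median difference of the 6 was 1.01, against -0.18 for all transcripts tested (log2(FPKM + 1)). For P5 against E21, Nr1d1 alone passed, 1 of 6, against 8.29% of all transcripts higher. Dbp was 0.73 ± 0.31 higher (adjusted p = 0.151), Rora 0.44 ± 0.19 higher (0.159) and Nfil3 0.08 ± 0.30 higher (0.886). The 6 had a median of 0.59 against -0.04 for all. Dbp passed this test without the E21 mid-day library (adjusted p = 0.0470).

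Later steps gave no call. For P20 against P5, 0 of the 6 passed with limma (1 at an unadjusted p under 0.05), against 7.02% of all transcripts. For P40 against P20 it was 0 of 6 (0 unadjusted), where 0% of all transcripts passed and 669 had an unadjusted p under 0.05.

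**Figure D3:**
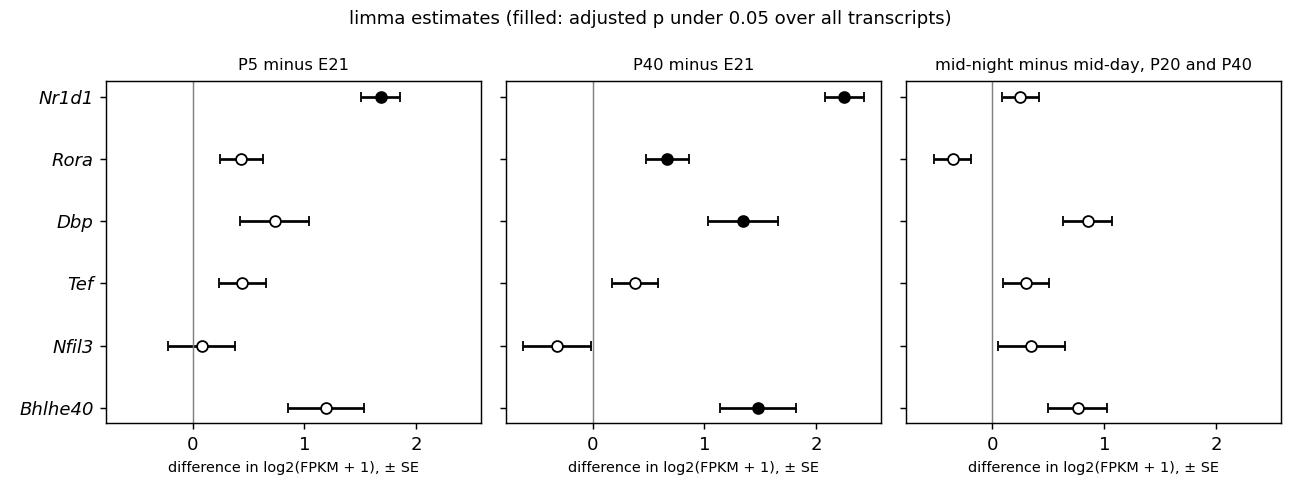
limma estimates (x axes, difference in log2(FPKM + 1) with bars of 1 standard error) for the 6 genes (rows) in P5 minus E21, P40 minus E21, and mid-night minus mid-day over P20 and P40; filled points passed an adjusted p under 0.05 over all transcripts. Nr1d1 is filled in both age panels, Rora, Dbp and Bhlhe40 in P40 minus E21, and none for time of day.

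Markers of the cell types in the glands differed with age as well, and are to be read against the 16.1% of all transcripts that rose and the 26.8% that fell for P40 against E21. Of 9 pinealocyte markers, 8 had a row, 4 of them rose for P40 against E21, and their FPKM summed to 796–854 at E21, 2525–3059 at P5, 2966–3345 at P20 and 3337–3915 at P40. Tph1 made most of each sum after E21, with 331 and 370 FPKM at E21 (mid-night and mid-day) and 2525 and 2756 FPKM at P40. Otx2 was lower at P40 (218 and 134 FPKM) than at E21 (267 and 274 FPKM). All 8 pinealocyte markers were above 0 in every library, and Asmt, the last enzyme of melatonin synthesis, was at 0.432–1.19 FPKM at E21. Of the 9 markers of matrix and fibroblasts, none at 0, 1 rose and 6 fell for P40 against E21, and they summed to 154–186 FPKM at P40 and 882–1241 at E21. Of 9 endothelial markers 8 had a row, 6 of the 7 tested fell for P40 against E21, and they summed to 18.6–22.6 FPKM at P40 and 52.0–68.8 at E21, with Cldn5 listed at 0 throughout. The 10 choroid plexus markers, none at 0, summed to 17984 FPKM in the P5 mid-night library and 3198 in the P5 mid-day library, against 633–1645 elsewhere. Ttr alone had 17323 FPKM at P5 mid-night and 2889 at P5 mid-day. Outside P5 the sums were mostly Ttr and Otx2, which is also among the pinealocyte markers. At P40 mid-day Ttr had 532 and Otx2 134 FPKM of a sum of 687. Other lists differed in direction for P40 against E21. Of 4 neuronal markers tested, Snap25, Slc17a7 and Syt1 rose and Nefm fell. Gad1, Gad2 and Nefl, also listed as neuronal, were under 1 FPKM in every library and were not tested. Of 8 astrocyte markers 4 rose and 4 fell. Of 9 microglia and macrophage markers 4 rose and 2 fell, and of 4 oligodendrocyte markers tested 2 rose. Of 5 smooth muscle and pericyte markers tested 3 fell, as did 3 of 4 erythroid markers. The part of these cells in the changes of the clock output genes was not tested, and in pooled glands fewer cells of a type and less RNA per cell cannot be told apart. Relative depth was read from short olfactory receptor transcripts above 0, of which each library had 13 to 26. The 10th percentile of their FPKM times genomic span was used, a rough measure with so few transcripts. Relative depth ran from 0.423 (P20 mid-day) to 1 (P40 mid-night), and 8598 to 9533 transcripts reached 1 FPKM.

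Time of day was tested with 1 night effect for P20 and P40 and 1 for E21 and P5. At P20 and P40, 0 of the 6 genes passed with limma (2 at an unadjusted p under 0.05, Dbp and Bhlhe40), against 4.39% of all transcripts. Bhlhe40 was 0.76 ± 0.26 higher at mid-night (log2(FPKM + 1), unadjusted p = 0.0218, adjusted p = 0.163). Without either P20 library its estimate was that of the P40 pair alone, 1.35, with an adjusted p of 0.0457 or 0.0458. In those fits each arm holds 1 pool, which is assumed to vary like the E21 and P5 pools from which the spread is taken. Without either P40 library the estimate was 0.17. The estimate was 0.35 ± 0.30 for Nfil3 (adjusted p = 0.573), 0.30 ± 0.21 for Tef (0.473) and 0.25 ± 0.16 for Nr1d1 (0.442). Rora alone was lower at mid-night, at -0.36 ± 0.17 (adjusted p = 0.289).

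At E21 and P5, 0 of the 6 passed with limma (0 unadjusted), against 0.0301% of all transcripts. Over the 4 ages together it was again 0 of 6 (0 unadjusted), where 0% of all transcripts passed and 1011 had an unadjusted p under 0.05. The difference between the older and the younger night effects was tested directly, and 0 of the 6 passed (1 unadjusted, Dbp), against 0.753% of all transcripts. This difference was 0.88 ± 0.31 for Dbp (adjusted p = 0.281), 0.83 ± 0.37 for Bhlhe40 (0.404), 0.26 ± 0.23 for Nr1d1 (0.673), 0.13 ± 0.42 for Nfil3 (0.920), 0.07 ± 0.29 for Tef (0.942) and -0.29 ± 0.24 for Rora (0.640).

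Within a single age, with 1 library at mid-night and 1 at mid-day, no test was made, and differences of at least 2-fold on the log2(FPKM + 1) scale were counted. None of the 6 reached this at E21, P5 or P20, where 2.03%, 1.85% and 5.16% of all transcripts did in either direction. At P40, 3 of the 6 were at least 2-fold higher at mid-night, where 3.04% of all transcripts were. These were Bhlhe40 (1.35), Dbp (1.10) and Nfil3 (1.04). With a pseudocount of 5 the count was 0, with Bhlhe40 at 0.98, Dbp at 0.97 and Nfil3 at 0.46. Tef was 0.66 and Nr1d1 0.32 higher at mid-night at P40, and Rora had a difference of -0.45. Each P40 library is a pool of 3 animals.

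**Figure D4:**
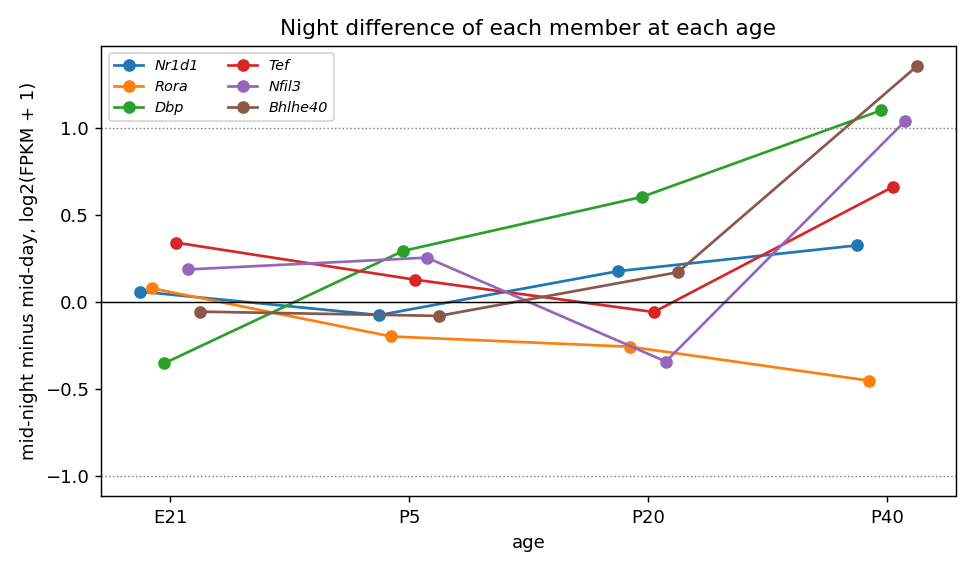
Mid-night minus mid-day in log2(FPKM + 1) (y axis) of the 6 genes at each age (x axis), 1 pair of pooled libraries per point with no error bar; dotted lines mark 2-fold. At P40, Bhlhe40, Dbp and Nfil3 lie above the upper line at 1.35, 1.10 and 1.04, and Rora lies lowest at -0.45.

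The core loop that these genes serve was read from a list of 10 genes, of which 8 had a row and were tested. At P20 and P40, 3 of the 8 were higher at mid-night and 1 lower, where 2.8% of all transcripts were higher and 1.59% lower. Per1 was higher by 2.31 ± 0.27 (log2(FPKM + 1), limma adjusted p = 0.00449), Cry2 by 1.89 ± 0.25 (0.00724) and Per2 by 1.68 ± 0.21 (0.00561), all 3 encoding repressors of CLOCK and BMAL1. Arntl was lower, by -1.58 ± 0.17 (0.00334). Per3 (0.65), Npas2 (0.15), Cry1 (-0.08) and Clock (-0.02) did not pass. The median of the 8 was 0.40 against -0.11 for all transcripts, and that of the 6 output genes 0.32. Cry2 had 21.4 and 38.1 FPKM at mid-night at P20 and P40, against 7.80 and 6.21 FPKM at mid-day. Arntl was the 1 core gene whose night effect differed between the older and younger ages past the test (-1.54 ± 0.24, adjusted p = 0.0432). For P40 against E21, Cry2 (1.57 ± 0.49, adjusted p = 0.0335) and Clock (0.64 ± 0.19, 0.0306) rose among the 8.

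Genes known in other tissues as clock-controlled outputs made a list of 12, of which 11 were tested. At P20 and P40, 1 of the 11 passed, where 2.8% of all transcripts were higher and 1.59% lower. This was Usp2, a ubiquitin protease, higher at mid-night by 1.09 ± 0.17 (log2(FPKM + 1), limma adjusted p = 0.0123). For P40 against E21, 4 of the 11 rose and 2 fell, where 16.1% of all transcripts rose and 26.8% fell. Por, the electron donor of microsomal P450 enzymes, rose by 1.14 ± 0.22 (0.00466), Klf9, a zinc finger factor, by 0.90 ± 0.16 (0.00375) and Lpin1, a phosphatidate phosphatase, by 1.28 ± 0.20 (0.00215), and Usp2 rose as well, while Tsc22d3 and Tfrc, the transferrin receptor, fell. Usp2 had 1.82, 7.75, 14.3 and 20.1 FPKM at mid-night from E21 to P40 and 1.56, 5.70, 6.72 and 8.17 FPKM at mid-day, higher at each age than at the one before at both times.

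Of 9 clock kinases and ubiquitin ligases tested, Btrc and Prkaa2 rose and Csnk1e fell for P40 against E21. Of all transcripts 16.1% rose and 26.8% fell. None of these 9 passed for night. Of 6 other bZIP factors, 3 were tested, and 1 passed at P20 and P40, where 2.8% of all transcripts were higher and 1.59% lower. This was Ddit3, a stress-response factor, higher at mid-night by 0.99 ± 0.20 (limma adjusted p = 0.0332). A further list held genes that the adult gland is known to express more at night. Of these, 10 of 10 tested were higher at mid-night at P20 and P40, with a median of 3.62, against 2.8% of all transcripts. They were listed for that trait, with earlier results of these data known, so the count is a description and not an independent test.

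For each gene the 3 transcripts with the most similar profile were taken by Pearson's r over the 8 libraries (log2(FPKM + 1), mean of at least 5 FPKM). These r describe shared profiles, in which all points come from the same 8 libraries, and carry no test. Nr1d1 was closest to LOC502894 (0.997), Syt1 (0.993), the synaptic vesicle calcium sensor, and Alox15 (0.992), a lipoxygenase. Syt1 had 10.4, 55.0, 98.2 and 138 FPKM at mid-night from E21 to P40 and 9.55, 57.3, 108 and 115 FPKM at mid-day, the same order of ages as Nr1d1. Rora was closest to Ugcg (0.992), the glucosylceramide synthase, Inpp4b (0.992) and Pfkfb2 (0.989). Dbp was closest to Rgs7bp (0.994), Armcx3 (0.983) and Arhgap24 (0.978), and Bhlhe40 to Mmd2 (0.987), Calhm1 (0.982) and Crtac1 (0.970). The r were lower for Tef, with Txndc11 (0.943), Saps1 (0.935) and Plk5 (0.931), and for Nfil3, with Gpr137 (0.962), Actn4 (0.942) and Id1 (0.932). No gene was among the 3 closest of more than 1 of the 6.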

How the data were processed

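Per the labels, polyadenylated RNA of pooled glands was sequenced as paired ends of 101 bases after 16 cycles of PCR. Per the submitters' processing notes, TopHat 1.3.1, Cufflinks 1.2.0 and build rn4 were used. The authors deposited FPKM, 1 value for each RefSeq transcript; filters and further scaling are not given in the sources used here. The values per sample equalled those of the series for all 8 libraries. Read totals were not used here, so depth is relative and no counting intervals are given. Lanes are not named in the labels.

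From these values log2(FPKM + 1) was computed, which understates changes near or under 1 FPKM. The test was limma 3.58.1 (R 4.3.3) over the 9960 transcripts that reached 1 FPKM in 2 or more libraries. It used a moderated variance trend, two-sided p and Benjamini-Hochberg adjustment (threshold 0.05). In simulated data with 200 changed transcripts, 4-fold changes were mostly recovered and 2-fold changes were not. The measured libraries gave 4276 calls between E21 and P40, so the adjustment was less strict there, and Rora passed at 0.67. The night test at P20 and P40 gave 437 calls, also more than the 200 simulated. The simulated spread came from the fit of age and time, so it also held night differences that change with age. The simulation therefore cannot tell how often the age tests or this night test miss a 2-fold change. A gene that did not pass may still have changed. Terms were age and time of day in one fit (residual degrees of freedom 3), and age with a night effect for each pair of ages in another (residual degrees of freedom 2). Other pseudocounts, filters, scalings and left-out libraries were tried as alternatives. Named were the measured genes, Thra and the core clock genes, up to 3 genes past the test in each other list (highest mean FPKM), and the 3 most similar profiles; Usp2 beyond this, Ddit3, and fallen genes were named because they passed. The genes and lists were chosen with earlier results of these data known. Promoter windows are RefSeq sequences of GRCr8. Some results are not reported here.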

Additional observations from a re-analysis of the deposited data

Results flagged for a closer look

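Bhlhe40 was picked out because its mid-night to mid-day difference had 1 sign at both younger ages and the other at both older ages. On the log2(FPKM + 1) scale mid-night minus mid-day was 0.17 at P20 and 1.35 at P40, against -0.06 at E21 and -0.08 at P5. The older night effect exceeded the younger by 0.83 ± 0.37, and the limma test of that difference did not pass (adjusted p = 0.404). The signs at E21, P5 and P20 rest on differences under 0.2, so only the P40 pair of pools, of 3 animals each, stands apart.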

How the results depend on the processing

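The alternatives were pseudocounts of 0.1 and 5, no filter, a filter at 5 FPKM (which leaves Nfil3 out), quantile normalization, median centring, robust eBayes, no time term (age results only), no P5 libraries, and each library left out. Of the values of single genes, 537 kept their call or their side of the 2-fold line, 21 lost a call, 10 gained one and 12 reversed in sign. Direction had to hold only for tested differences and for single-age differences of at least 2-fold. The other 3 were Dbp, Nfil3 and Bhlhe40 at P40, whose mid-night to mid-day difference fell under 2-fold with a pseudocount of 5. The age F test called 3 of the 6 genes, 1 with no filter, 4 after quantile normalization or median centring and 1 to 3 with a library left out. P40 against E21 called 4, and 1 to 4 with a library left out. P5 against E21 called 1, 2 with a pseudocount of 0.1 or quantile normalization, and 1 to 2 with a library left out. Night at P20 and P40 called 0, 1 after median centring, and 0 to 1 with a library left out. At P40 the 2-fold count was 3, and 0 with a pseudocount of 5. With a library left out, Nfil3 for P40 minus E21 ran from -0.82 to 0.19. The night effect at P20 and P40 ran from -0.059 to 0.66 for Tef and from -0.34 to 1.04 for Nfil3. The older minus younger night effect ran from -0.29 to 0.43 for Tef (-0.039 without both P5 libraries) and from -0.56 to 0.82 for Nfil3. Leaving out 1 library of an age also removes that age's night difference; its lone library is assumed to vary like the others. Beyond that the cause was not tested. Over all transcripts, P5 against E21 called 1507 (436 to 1912 over the alternatives), night at P20 and P40 437 (105 to 523), P20 against P5 699 (35 to 753) and the difference of night effects 75 (0 to 106). Pools could not be paired by replicate, because no replicate numbers are given and every age has a lone pool at each time of day. The fits carry age as a term, so the night tests set mid-night and mid-day libraries of the same age against each other.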
